A study of Mus musculus with 19 samples.

Results

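A set of 10 genes of the TNF, IL-1 and NF-kB feedback circuit were followed in mouse liver under a steatohepatitis diet and remote limb conditioning. They were Tnf, Il1a, Il1b, Il18, Il1rn, Nlrp3, Casp1, Tnfrsf1b, Nfkbia and Tnfaip3. Each was taken by its gene symbol at any expression level, which gave 10 of the 52110 named entries of the expression table, with 1 entry per gene.

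TNF and the IL-1 family are the cytokines that start many inflammatory responses, and in liver they come largely from macrophages, among them the resident Kupffer cells. Their receptors signal through adaptor proteins and ubiquitin ligases to the IkB kinases, which release the NF-kB transcription factors from their inhibitors. NF-kB then switches on chemokines and adhesion molecules together with its own brakes, so that inhibitors are made at the same time as the signals they limit. IL-1 beta and IL-18 are made as precursors that caspase-1 cuts after the NLRP3 inflammasome has assembled, so their RNA does not show how much active cytokine was released.

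Liver RNA-seq covered 19 samples of WT mice, all sequenced from total RNA. NC sham mice (n = 5) ate normal chow (NC) and had a sham procedure, and NC RIC mice (n = 5) ate the same chow and had remote limb ischemic conditioning (RIC), in which blood flow to a limb is briefly interrupted. CDAHFD sham (n = 5) and CDAHFD RIC mice (n = 4) had the same procedures on CDAHFD, a high-fat diet that is choline-deficient and L-amino acid-defined and that causes steatohepatitis. The sources used here do not give strain, age, sex, feeding time or the conditioning schedule. The labels number the samples of a group as replicates without saying that each came from its own mouse, so each p-value reflects only how far these samples scatter, part of which may be technical.

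Values are the authors' FPKM, which count fragments relative to gene length and to the fragments mapped in a sample, so levels can be set side by side between genes. Depth was estimated at 15.95 to 26.43 M reads per sample. The estimate takes the most common value above 0 of FPKM times gene length, over single-exon genes, to be a single read. The 6 hepatocyte markers examined had a summed FPKM of 32200 or more in every sample, where the whole table summed to 418945 to 512036. Each comparison used limma on log2(FPKM + 1) over all 19 samples with 1 mean per group, and a gene was called at a Benjamini-Hochberg adjusted p under 0.05 over the 10577 genes whose mean reached 1 FPKM. Of the 10 genes, 8 reached that mean. Tnf and Nlrp3 did not, and their tests come from the same model over the 29754 genes above 0 in at least 1 sample. For genes near or below 1 FPKM this scale shrinks the change, and the fold changes given beside it are ratios of mean FPKM.

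All 10 genes were higher in CDAHFD sham than in NC sham liver. At that threshold 63.9% of the genes above the filter were higher, and 37.1% without it, so a call alone does not set the 10 genes apart. The 8 genes above the filter had a median difference of 1.14 on the log2(FPKM + 1) scale, against 0.45 over all genes tested, and Casp1, Il1a, Il1b, Il1rn and Tnfaip3 passed the filter only through their CDAHFD values. Groups did not overlap for 9 of the 10 genes, where 59.3% of genes above the filter and 32.6% without it had no overlap. In whole liver, a change in the number of cells of a type and a change in the RNA per cell cannot be told apart.

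**Figure D1:**
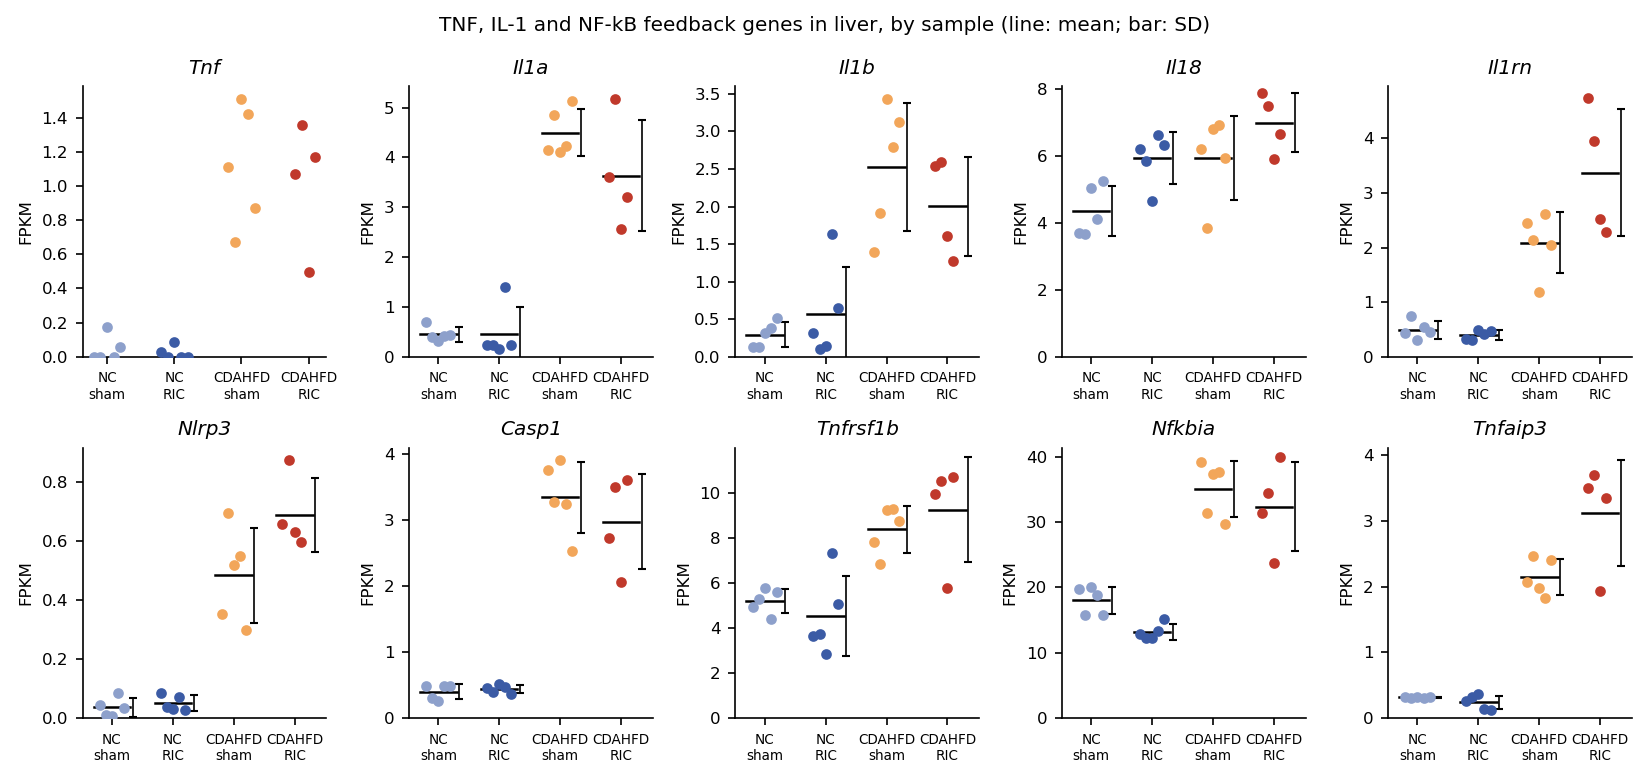
FPKM of the 10 genes in each of the 19 samples (points), by group, with the group mean (line) and SD (bar, cut at 0). Tnf is drawn without mean and SD because it was listed at 0 in 6 chow samples. The CDAHFD samples lie above the chow samples for most genes, with the Il18 groups overlapping and NC RIC sample 4 reaching the CDAHFD range for Il1b and Tnfrsf1b.

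Tnf, the founding ligand of the TNF family (chr17:35199381-35202007, minus strand), was close to undetected on chow. It was listed at 0, 0, 0.177, 0 and 0.0566 FPKM in NC sham and at 0.0282, 0, 0.0895, 0 and 0 FPKM in NC RIC. In CDAHFD sham it stood at 1.11, 0.673, 1.51, 1.42 and 0.871 FPKM, and in CDAHFD RIC at 1.07, 1.36, 0.498 and 1.17 FPKM. Every CDAHFD sample lay above every chow sample, and the CDAHFD groups overlapped. The difference between CDAHFD sham and NC sham was 1.0 ± 0.12 (SE) on the log2(FPKM + 1) scale, with a limma adjusted p of 1.92e-06. Fewer than 6 reads per chow sample are estimated to lie behind these values (0 to 5.0 in NC sham and 0 to 3.0 in NC RIC), against 22.2 to 50.1 in CDAHFD sham, so a Tnf level on chow is not resolved at this depth.

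Il1a encodes IL-1 alpha, which is active without caspase-1 and can act as an alarm signal of damaged cells (chr2:129299610-129309972, minus strand). Its FPKM were 0.701, 0.391, 0.312, 0.416 and 0.436 in NC sham and 0.244, 0.245, 0.154, 1.41 and 0.237 in NC RIC. They were 4.14, 4.86, 4.11, 4.23 and 5.13 in CDAHFD sham and 3.6, 5.17, 2.56 and 3.21 in CDAHFD RIC. All CDAHFD values exceeded all chow values, and NC RIC sample 4 stood apart from the other 9 chow samples. Il1a rose 9.95-fold with the diet in sham mice, a difference of 1.92 ± 0.17 (SE) on the log2(FPKM + 1) scale (limma adjusted p = 8.99e-09). This was the largest difference on that scale among the 10 genes.

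Il1b encodes IL-1 beta, the form that needs cutting by caspase-1 (chr2:129364570-129371139, minus strand). Its FPKM were 0.126, 0.134, 0.312, 0.385 and 0.521 in NC sham and 0.321, 0.102, 0.146, 1.63 and 0.649 in NC RIC. On CDAHFD they were 1.4, 1.91, 3.43, 2.79 and 3.12 in sham and 2.54, 2.59, 1.61 and 1.28 in RIC mice. The sham groups did not overlap, while NC RIC sample 4 lay inside the CDAHFD range. Il1b rose 8.55-fold with the diet in sham mice, a difference of 1.42 ± 0.22 (SE, log2(FPKM + 1), limma adjusted p = 8.84e-06). Il1a was the higher of both IL-1 ligands in CDAHFD sham, at 4.49 ± 0.472 FPKM (SD, n = 5) against 2.53 ± 0.852 FPKM (SD, n = 5) for Il1b. Genes on the opposite strand overlap both, Gm14023 at Il1a (group medians up to 0.439 FPKM) and Il1bos at Il1b (at most 0.0499 FPKM in any sample), and their reads cannot be told apart without strand.

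Il18 encodes IL-18, an IL-1 family cytokine that promotes interferon-gamma release and that many liver cells hold in store (chr9:50554827-50581840, plus strand). It was the member least tied to diet. Its FPKM were 3.7, 3.67, 5.05, 4.12 and 5.26 in NC sham and 6.22, 5.85, 4.65, 6.65 and 6.33 in NC RIC. On CDAHFD they were 6.21, 3.85, 6.82, 6.93 and 5.94 in sham and 7.89, 7.52, 5.92 and 6.67 in RIC mice. The groups overlapped, since CDAHFD sham sample 2 lay among the NC sham values. The diet difference in sham mice was 0.36 ± 0.13 (SE, log2(FPKM + 1), 1.36-fold, limma adjusted p = 0.0172), which is below the 0.45 median of all genes. After median-ratio scaling, which brings the median gene of each sample level, it turned to -0.12 (adjusted p = 0.453), and after quantile normalization to -0.15 (adjusted p = 0.336). Il18 overlaps Bco2 and Tex12 on the opposite strand, and since the sources used here do not say whether the libraries keep strand, reads of these genes cannot be told apart. Bco2 had group medians of 3.22 to 5.05 FPKM, the highest in NC RIC.

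Il1rn encodes the IL-1 receptor antagonist, which binds the IL-1 receptor without starting a signal (chr2:24336853-24351494, plus strand). Its FPKM were 0.437, 0.751, 0.308, 0.543 and 0.457 in NC sham and 0.319, 0.305, 0.491, 0.424 and 0.469 in NC RIC. On CDAHFD they were 2.46, 2.14, 1.18, 2.62 and 2.04 in sham and 4.74, 3.95, 2.52 and 2.29 in RIC mice. No CDAHFD sample reached down to the chow range, and the CDAHFD RIC group held both of the highest samples. The diet raised Il1rn 4.18-fold in sham mice, a difference of 1.03 ± 0.15 (SE, log2(FPKM + 1), limma adjusted p = 4.59e-06).

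Nlrp3, the sensor around which the inflammasome forms (chr11:59541568-59566956, plus strand), was, with Tnf, the lowest of the 10 genes on chow. Its FPKM were 0.045, 0.0112, 0.00814, 0.0868 and 0.0362 in NC sham and 0.0871, 0.0381, 0.0329, 0.0733 and 0.0281 in NC RIC. On CDAHFD they were 0.353, 0.696, 0.52, 0.55 and 0.298 in sham and 0.658, 0.873, 0.63 and 0.595 in RIC mice. Diets did not overlap, and mean FPKM was 12.9-fold higher in CDAHFD sham than in NC sham. The difference was 0.51 ± 0.06 (SE) on the log2(FPKM + 1) scale (limma adjusted p = 2.58e-06), and the chow values rest on an estimated 0.6 to 7.5 reads per sample.

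Casp1, the protease of the inflammasome (chr9:5298517-5307265, plus strand), had FPKM of 0.486, 0.308, 0.256, 0.486 and 0.487 in NC sham and 0.466, 0.397, 0.527, 0.476 and 0.366 in NC RIC. Its CDAHFD values were 3.76, 3.27, 3.92, 3.25 and 2.54 in sham and 2.73, 3.5, 2.07 and 3.61 in RIC mice. Every CDAHFD sample was above every chow sample. Casp1 rose 8.27-fold in sham mice and had the smallest p of the 10 genes for the diet, with a difference of 1.62 ± 0.11 (SE, log2(FPKM + 1), limma adjusted p = 2.01e-10).

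Tnfrsf1b encodes the second TNF receptor, found mainly on blood-derived and endothelial cells (chr4:145213463-145246870, minus strand). Its FPKM were 4.95, 5.29, 5.76, 4.42 and 5.61 in NC sham and 3.63, 3.74, 2.85, 7.34 and 5.07 in NC RIC. On CDAHFD they were 7.8, 6.84, 9.24, 9.25 and 8.75 in sham and 9.95, 10.5, 5.79 and 10.7 in RIC mice. The sham groups did not overlap, NC RIC sample 4 was within the CDAHFD range, and CDAHFD RIC sample 3 lay apart from the other 3 of its group. The rise in sham mice was 1.61-fold, a difference of 0.59 ± 0.18 (SE, log2(FPKM + 1), limma adjusted p = 0.00527), and it was lost after median-ratio scaling (0.08, adjusted p = 0.714) and quantile normalization (0.10, adjusted p = 0.665).

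The remaining 2 genes encode brakes on NF-kB itself. Nfkbia encodes IkB alpha, which holds NF-kB in the cytoplasm, and Tnfaip3 encodes a ubiquitin-editing enzyme that ends signalling below the TNF and IL-1 receptors. Both are textbook NF-kB targets and both rose with the diet, so their promoters are shown. The 100 bases before a RefSeq start of each gene, read on the minus strand of GRCm38.p6, cover chr12:55492648-55492747 for Nfkbia and chr10:19015411-19015510 for Tnfaip3. The Nfkbia stretch lies outside the gene. Tnfaip3 has 2 RefSeq starts, and the one used here lies 1 base beyond the stretch shown, at position 19015410, where a GENCODE transcript of the gene starts too. Another GENCODE transcript starts farther out, at position 19015657, and by that transcript the stretch is intronic and inside the gene. Capitals mark matches to GGAANTTCC, a form of the NF-kB motif that reads the same on both strands.
Nfkbia: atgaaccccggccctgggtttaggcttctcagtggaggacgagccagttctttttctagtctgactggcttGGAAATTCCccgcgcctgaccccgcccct
Tnfaip3: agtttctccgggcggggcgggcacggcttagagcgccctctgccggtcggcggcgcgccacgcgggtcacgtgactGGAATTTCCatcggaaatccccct

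In Nfkbia the match GGAAATTCC lies 29 to 21 bases before the start, and in Tnfaip3 the match GGAATTTCC lies 24 to 16 bases before the start used here. Over windows of 300 bases (250 before and 50 after the start), the motif was found in 2 of the 14 RefSeq promoters of the 10 genes, those shown. Over all 32851 mouse promoters of the same length 0.928% held it. The motif letters were chosen with these promoters in view, another longer form was also searched and is not reported here, and a match is a run of letters, not a measured binding site.

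Nfkbia (chr12:55489410-55492647, minus strand) was the most abundant of the 10 genes in every group. Its FPKM were 19.8, 15.8, 20.0, 18.8 and 15.8 in NC sham and 12.9, 12.3, 12.3, 13.3 and 15.2 in NC RIC. On CDAHFD they were 39.2, 31.4, 37.4, 37.7 and 29.7 in sham and 31.4, 34.4, 23.7 and 40.0 in RIC mice. The groups of different diets did not overlap, and each NC RIC sample lay below each NC sham sample. The diet raised Nfkbia 1.95-fold in sham mice, a difference of 0.92 ± 0.12 (SE, log2(FPKM + 1), limma adjusted p = 1.26e-06).

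Tnfaip3 (chr10:19000910-19015657, minus strand) stood at 0.329, 0.306, 0.324, 0.306 and 0.324 FPKM in NC sham and at 0.257, 0.317, 0.364, 0.149 and 0.129 FPKM in NC RIC. On CDAHFD it stood at 2.07, 2.46, 1.98, 1.82 and 2.41 FPKM in sham and at 3.5, 3.7, 1.93 and 3.34 FPKM in RIC mice. Diets did not overlap, and 3 of the 4 CDAHFD RIC samples lay above all 5 CDAHFD sham samples. The rise with the diet in sham mice was 6.76-fold, a difference of 1.25 ± 0.11 (SE, log2(FPKM + 1), limma adjusted p = 5.81e-09). Tnfaip3 thus moved by a larger factor than Nfkbia from a level that was far lower, 0.318 ± 0.0109 FPKM (SD, n = 5) against 18 ± 2.08 FPKM (SD, n = 5) in NC sham.

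Markers of each cell type examined other than hepatocytes were called higher with the diet for most of their list, beside a share of 63.9% of genes above the filter and 37.1% without it. All 9 monocyte and macrophage markers were higher in CDAHFD sham than in NC sham, and their summed FPKM went from 23.5 to 34.3 in NC sham to 373 to 555 in CDAHFD sham. Kupffer cell markers were higher for 5 of 6, with sums of 41.8 to 60.3 and 172 to 285 FPKM. Of 6 neutrophil markers 5 were higher, with sums of 0.272 to 0.825 and 14.6 to 37.8 FPKM. The 6th, Ly6g, which defines mouse neutrophils, was not called (limma adjusted p = 0.299), since it was at 0 in all 10 chow samples and had a CDAHFD sham mean of 0.0645 FPKM that came from 1 sample at 0.322 FPKM. Stellate cell markers were higher for 5 of 5 (sums of 17.1 to 30.3 and 82.6 to 131 FPKM) and cholangiocyte markers for 4 of 4 (1.16 to 2.44 and 7.46 to 23.6 FPKM). Endothelial markers were higher for 4 of 5 (7.45 to 18.2 and 16.6 to 27.8 FPKM) and T and B cell markers for 4 of 6 (0.115 to 1.08 and 1.03 to 3.75 FPKM). Hepatocyte markers were lower for 5 of 6, with sums of 41500 to 52100 and 32200 to 38300 FPKM. The part of these cells in the rise of the 10 genes was not tested.

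**Figure D2:**
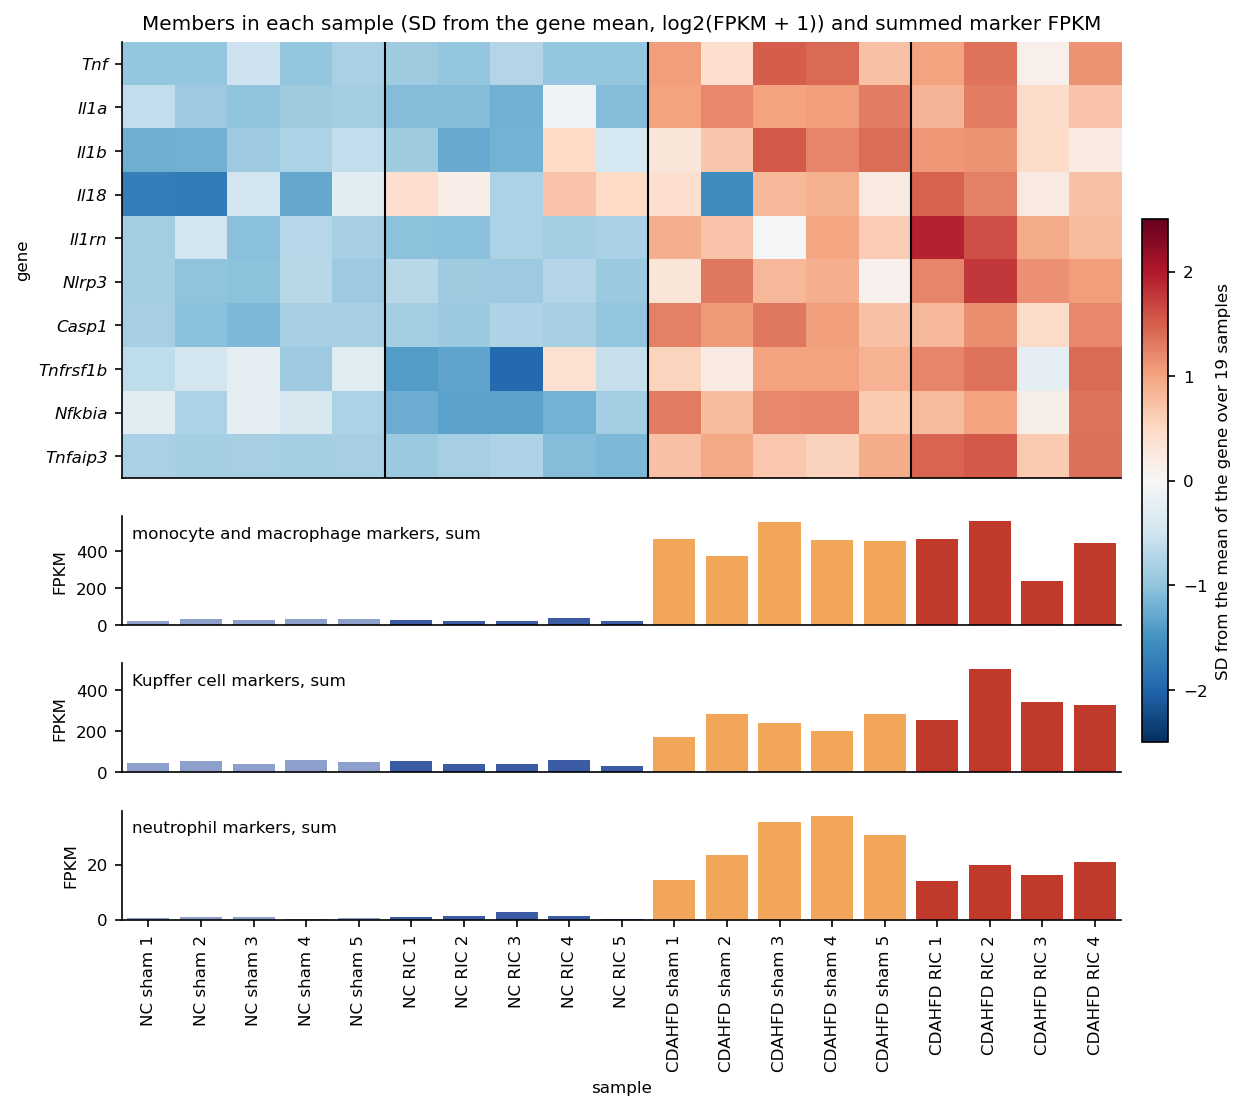
The upper panel shows each gene in each of the 19 samples, in SD from the mean of the gene on the log2(FPKM + 1) scale, and the lower panels show the summed FPKM of the monocyte and macrophage, Kupffer cell and neutrophil markers (bars, coloured by group). CDAHFD RIC sample 3 is paler than the rest of its group for most genes and has the lowest macrophage sum on CDAHFD, 239 FPKM.

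On CDAHFD, conditioning was followed by higher Il1rn and Tnfaip3 and by no called change in the other 8 genes. Genes called higher made up 8.72% of those above the filter and genes called in either direction 27.3%, and without the filter 10.7% were called, so 2 of 10 is near the background. Il1rn was 3.37 ± 1.17 FPKM (SD, n = 4) in CDAHFD RIC against 2.09 ± 0.558 FPKM (SD, n = 5) in CDAHFD sham, 1.62-fold, a difference of 0.48 ± 0.16 (SE, log2(FPKM + 1), limma adjusted p = 0.0289). Tnfaip3 was 3.11 ± 0.804 FPKM (SD, n = 4) against 2.15 ± 0.277 FPKM (SD, n = 5), 1.45-fold, a difference of 0.37 ± 0.11 (SE, limma adjusted p = 0.0243). Both genes overlapped between the groups, at samples 3 and 4 of CDAHFD RIC for Il1rn and at sample 3 for Tnfaip3.

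Both calls rest on a few samples. The Il1rn call was lost without CDAHFD sham sample 3 (0.36, adjusted p = 0.081), CDAHFD RIC sample 1 (0.34, adjusted p = 0.117) or CDAHFD RIC sample 2 (0.41, adjusted p = 0.0873), and without CDAHFD sham samples 2 and 5 together (0.50, adjusted p = 0.0536). That of Tnfaip3 was lost without CDAHFD sham sample 3 (0.35, adjusted p = 0.0542) or 4 (0.33, adjusted p = 0.0557) and without CDAHFD RIC sample 1 (0.32, adjusted p = 0.0765), 2 (0.29, adjusted p = 0.0836) or 4 (0.33, adjusted p = 0.0594). A pseudocount of 0.1 ended both calls (adjusted p = 0.0739 for Il1rn and 0.119 for Tnfaip3), as did a fit on the 9 CDAHFD samples alone (0.109 and 0.0988). The direction was upward in all 19 settings tried for each gene, of which 12 gave a call for Il1rn and 12 for Tnfaip3.

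The ligands and the inflammasome gave no call for conditioning on CDAHFD. Il1a differed by -0.27 on the log2(FPKM + 1) scale (95% interval -0.65 to 0.11, limma adjusted p = 0.275) and Il1b by -0.22 (-0.70 to 0.26, adjusted p = 0.491). Tnf differed by -0.07 (-0.33 to 0.20, adjusted p = 0.799) and Casp1 by -0.14 (-0.38 to 0.11, adjusted p = 0.397). These intervals exclude neither no change nor, for Il1a and Il1b, a fall of over 0.5 on that scale. Il18 differed by 0.22 (-0.07 to 0.51, adjusted p = 0.251), Tnfrsf1b by 0.10 (-0.29 to 0.49, adjusted p = 0.715) and Nfkbia by -0.13 (-0.39 to 0.14, adjusted p = 0.478).

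Nlrp3 differed by 0.19 (0.05 to 0.33, limma adjusted p = 0.0723), from 0.483 ± 0.16 to 0.689 ± 0.125 FPKM (SD, n = 5 and n = 4). It passed in 5 of 18 settings. These were without CDAHFD sham sample 2 (0.24, adjusted p = 0.0129), without samples 2 and 5 of that group (0.20, adjusted p = 0.0342) and under equal sums, median-ratio scaling and quantile normalization (0.19 to 0.24, adjusted p of 0.0435 to 0.0494). CDAHFD RIC sample 3 was the lowest of its group for Tnf, Il1a, Il18, Casp1, Tnfrsf1b, Nfkbia and Tnfaip3. Without it Tnf differed by 0.07 and Nfkbia by 0.01, so their direction turned, and neither was called.

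**Figure D3:**
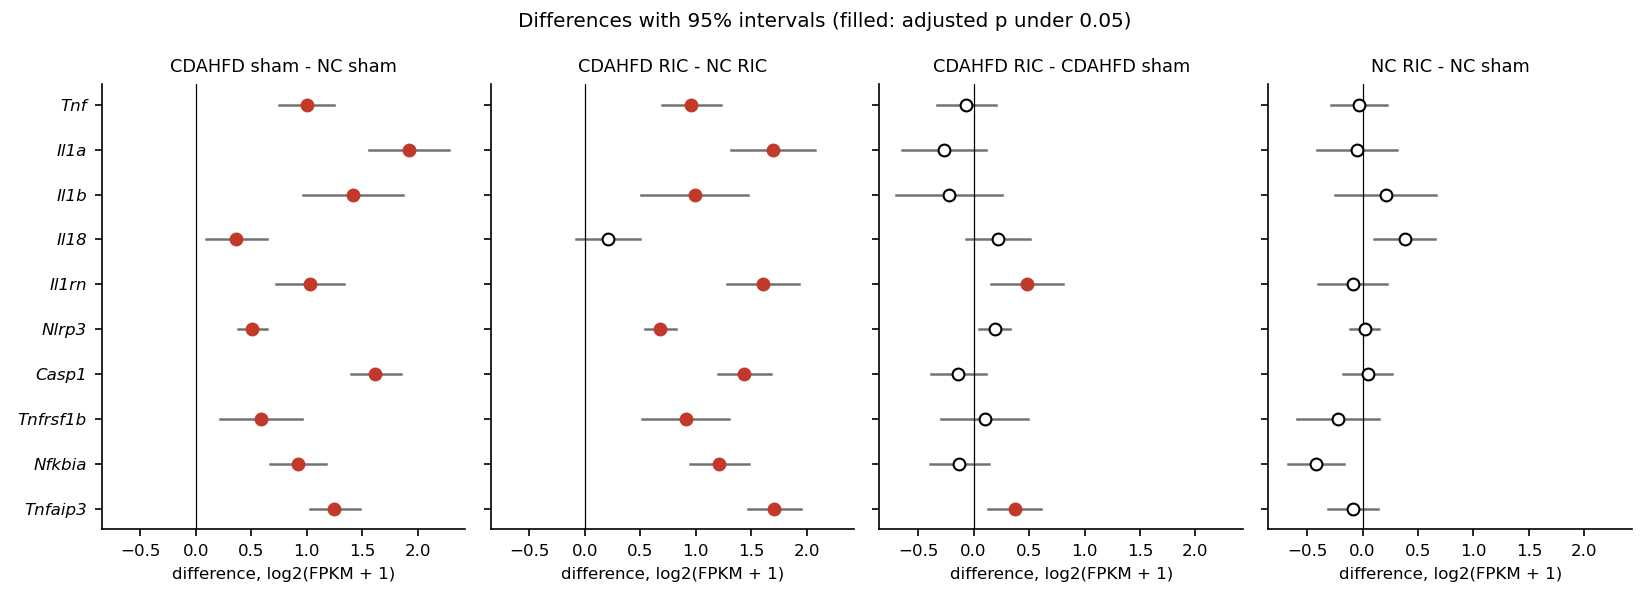
Differences between groups on the log2(FPKM + 1) scale (points) with 95% intervals (lines) for the 10 genes, in 4 comparisons, with filled points for an adjusted p under 0.05. Diet gives 10 filled points in sham and 9 in RIC mice, conditioning gives 2 on CDAHFD (Il1rn and Tnfaip3) and 0 on chow.

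The balance of IL-1 antagonist to ligand was described by the ratio of their genes. The Il1rn to Il1b ratio of FPKM was 1.87, 1.53, 1.57 and 1.79 in the CDAHFD RIC samples and 1.76, 1.12, 0.345, 0.94 and 0.653 in CDAHFD sham. CDAHFD sham sample 1 lay inside the RIC range and the other 4 below it. On chow the ratio ran from 0.877 to 5.6 in NC sham and from 0.261 to 3.35 in NC RIC, at levels of both genes near or below 1 FPKM.

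The ratio of Tnfaip3 to Rela, the gene of the main transactivating NF-kB subunit, was 0.517, 0.622, 0.358 and 0.412 in CDAHFD RIC and 0.282, 0.306, 0.272, 0.296 and 0.296 in CDAHFD sham. Each conditioned sample lay above each sham sample, sample 3 included, and both groups lay above chow, where the ratio was 0.032 to 0.124. Tnfaip3 alone did overlap between the CDAHFD groups. Mean Rela was 7.4 FPKM in CDAHFD sham and 6.55 FPKM in CDAHFD RIC, without a call. How often other ratios separate these groups was not counted, so the separation does not set this ratio apart. Nfkbia to Nfkb1, the gene of the NF-kB precursor and DNA-binding subunit, had a median of 21.5 in NC sham and 16.9 after conditioning on chow, and of 15.2 in CDAHFD sham and 16.65 after conditioning on CDAHFD. These ranges overlapped between all 4 groups. The ratios are given as descriptions and were not tested.

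Cell type markers gave 5 higher and 3 lower calls for conditioning on CDAHFD. Of all genes above the filter 8.72% were higher and 18.6% lower, and 10.7% were called in either direction without it. Kupffer cell markers were higher for 3 of 6 (Vsig4, Timd4 and Cd5l), and their summed FPKM was 256 to 503 in CDAHFD RIC against 172 to 285 in CDAHFD sham. That count was 1 without CDAHFD sham sample 1 or 4 or without CDAHFD RIC sample 2. Of the 9 monocyte and macrophage markers 1 was higher (Adgre1), with sums of 239 to 559 against 373 to 555 FPKM. Of the 6 neutrophil markers 1 was lower (S100a8), with sums of 14.2 to 21.1 against 14.6 to 37.8 FPKM. Hepatocyte markers gave 1 higher (Cps1) and 1 lower (Ttr) of 6, with sums of 32700 to 44800 against 32200 to 38300 FPKM, and stellate cell markers 1 lower (Col1a1) of 5, with sums of 70.8 to 113 against 82.6 to 131 FPKM. Endothelial, cholangiocyte and T and B cell markers gave no call. The part of these cells in the differences of the 10 genes was not tested.

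On chow, conditioning gave 0 calls among the 10 genes with limma. Called genes were 1.18% of those above the filter and 0.161% without it. The unadjusted p was under 0.05 for 2 of the 10 genes, and for 1747 of the 10577 genes above the filter. That count alone does not set the 10 genes apart. Nfkbia was 13.2 ± 1.18 FPKM in NC RIC against 18 ± 2.08 FPKM in NC sham (SD, n = 5 each), 0.733 times the sham level, with a difference of -0.42 ± 0.12 (SE, log2(FPKM + 1), unadjusted p = 0.00244, adjusted p = 0.0964). The groups did not overlap for Nfkbia, as was so for 4.75% of genes above the filter, and with array weights, which give less weight to noisier samples, the gene passed (-0.40, adjusted p = 0.0394). Il18 differed by 0.38 ± 0.13 (SE, unadjusted p = 0.00968, adjusted p = 0.159), from 4.36 ± 0.751 to 5.94 ± 0.777 FPKM (SD, n = 5 each). Sample 3 of NC RIC lay within the sham range.

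NC RIC sample 4 held the highest Il1a, Il1b and Tnfrsf1b values on chow. Its macrophage marker sum of 37.7 FPKM was the highest of the 10 chow samples, which ran from 20.5 FPKM, and the part of these markers was not tested. It was not high for Tnf, listed at 0, for Il1rn at 0.424 FPKM or for Tnfaip3 at 0.149 FPKM.

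In conditioned mice the diet raised 9 of the 10 genes, all but Il18 (0.21, 95% interval -0.08 to 0.50, limma adjusted p = 0.19). Of genes above the filter 63.6% were higher, and 34% without it. Tnfaip3 rose 12.8-fold (1.71 ± 0.11 SE, log2(FPKM + 1), adjusted p = 3.17e-10), Il1rn 8.40-fold (1.61 ± 0.16, adjusted p = 5.19e-08) and Nfkbia 2.45-fold (1.21 ± 0.13, adjusted p = 1.24e-07). Il1b rose 3.52-fold (0.99 ± 0.23, adjusted p = 0.000858), a call that quantile normalization ended (0.48, adjusted p = 0.105). Tnfrsf1b rose 2.04-fold (0.91 ± 0.19, adjusted p = 0.000279) and missed the threshold after median-ratio scaling (0.43, adjusted p = 0.0839) and quantile normalization (0.43, adjusted p = 0.0646). This comparison shares its CDAHFD RIC samples with that of conditioning on CDAHFD and its NC RIC samples with that on chow.

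Whether conditioning acted differently on the 2 diets was tested as an interaction, and 0 of the 10 genes were called with limma, where 6.72% of genes above the filter were, and 1.7% without it. Unadjusted p was under 0.05 for 2 of the 10 genes, and for 2439 of the 10577 genes above the filter. This count alone does not set the 10 genes apart. Tnfaip3 had a difference of differences of 0.45 ± 0.16 (SE, log2(FPKM + 1), unadjusted p = 0.00937, adjusted p = 0.0854) and Il1rn one of 0.58 ± 0.22 (unadjusted p = 0.015, adjusted p = 0.111). Tnfaip3 passed without CDAHFD RIC sample 3 (0.61, adjusted p = 0.00618) and in 4 other settings of 28. Chow means in NC sham and NC RIC were 0.318 and 0.243 FPKM for Tnfaip3 and 0.499 and 0.402 FPKM for Il1rn. This scale shrinks changes at such levels, so equal fold changes on both diets would also give a difference of differences.

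The other genes of the pathway are counted beside the same shares of all genes, 63.9% higher and 10.3% lower above the filter and 37.1% higher without it, so that lists with about that share higher are not set apart by their counts. Of 14 other ligands, receptors and decoys, 9 were higher and 2 lower in CDAHFD sham. The 2 lower genes were both IL-1 receptor chains. Il1r1, the signalling receptor, fell from 19.3 ± 4.25 to 8.28 ± 1.36 FPKM (SD, n = 5 each; -1.11 ± 0.22 SE on the log2(FPKM + 1) scale, limma adjusted p = 0.000152). Il1rap, the accessory chain that both IL-1 ligands need, fell from 17 ± 1.18 to 6.17 ± 0.382 FPKM (-1.33 ± 0.09, adjusted p = 4.63e-10). Of 6 hepatocyte markers 5 were lower as well, and their part in the fall of the receptor chains was not tested.

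The genes of the first TNF receptor and of the IL-18 decoy were higher instead. Tnfrsf1a, the widely expressed first TNF receptor, rose from 7.96 ± 0.794 to 28.3 ± 2.85 FPKM (SD, n = 5 each). The difference was 1.71 ± 0.09 (SE, log2(FPKM + 1), limma adjusted p = 8.32e-12). Tnfrsf1a was above Tnfrsf1b in both groups, with Tnfrsf1b at 5.21 ± 0.538 FPKM in NC sham and 8.38 ± 1.04 FPKM in CDAHFD sham. Il18bp, the secreted decoy that binds IL-18, rose from 1.69 ± 0.257 to 6.55 ± 2.03 FPKM (1.46 ± 0.19 SE, adjusted p = 1.21e-06), while its ligand gene had the smallest difference of the 10 genes.

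NF-kB subunits were higher for 5 of 5, among them Nfkb2 (6.30-fold), Nfkb1 (2.65-fold) and Rela (2.34-fold). Other NF-kB feedback genes were higher for 8 of 10, with Bcl3, an atypical IkB protein, at 5.10-fold and Tnip1, a partner of the Tnfaip3 protein, at 6.93-fold. NF-kB target genes were higher for 11 of 12. Icam1, an adhesion molecule for leukocytes, rose 18.7-fold and the monocyte chemokine Ccl2 went from 0.048 ± 0.0502 to 12.0 ± 1.83 FPKM (SD, n = 5 each). Inflammasome partners were higher for 7 of 11 and lower for 2, but this count hides a split by level. Of the 5 above the filter 1 was higher and 2 were lower, with a median of -0.93 on the log2(FPKM + 1) scale. All 6 below the filter were higher. The summed FPKM of these partners was 95.7 to 152 in NC sham and 60.1 to 81 in CDAHFD sham. Of 18 adaptors and kinases 10 were higher and 1 lower. The adaptor and kinase list changed sides with scaling: its median of 0.36 on the log2(FPKM + 1) scale became -0.09 after median-ratio scaling and -0.14 after quantile normalization.

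**Figure D4:**
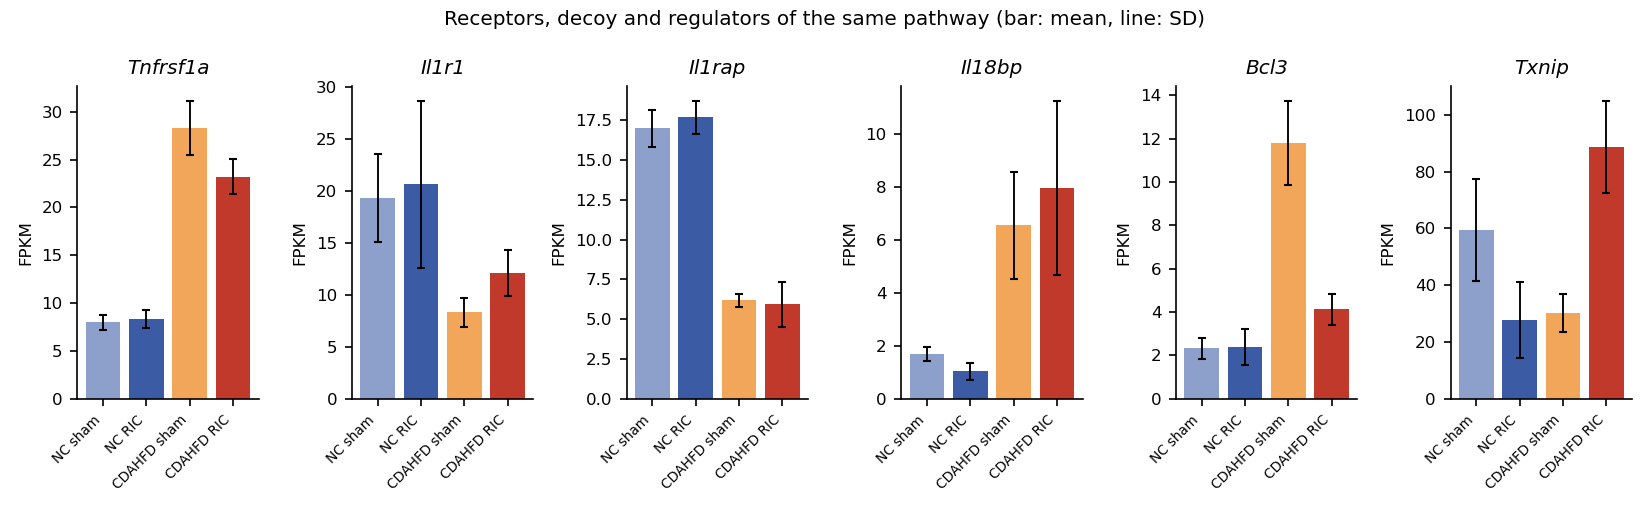
Mean FPKM (bars) with SD (lines) of 6 pathway genes outside the 10, by group. Tnfrsf1a and Il18bp are higher and Il1r1 and Il1rap lower on CDAHFD, Bcl3 falls from 11.8 to 4.12 FPKM with conditioning on CDAHFD, and Txnip is higher with conditioning on CDAHFD and lower on chow.

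With conditioning on CDAHFD the other NF-kB feedback genes did not follow Tnfaip3 in one direction. Of 10, 1 was higher and 2 lower, which does not set the list apart by count. Of all genes above the filter 8.72% were higher and 18.6% lower, and without it 7.27% were lower. Bcl3 fell from 11.8 ± 1.94 (SD, n = 5) to 4.12 ± 0.708 FPKM (SD, n = 4), with no overlap (-1.32 ± 0.16 SE, log2(FPKM + 1), limma adjusted p = 4.06e-05). Cyld, a deubiquitinase that like the Tnfaip3 product trims signalling ubiquitin chains, rose from 0.928 ± 0.209 to 1.80 ± 0.361 FPKM (0.53 ± 0.10, adjusted p = 0.00122). Both were called in all 19 settings tried for this comparison.

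Target genes of NF-kB were lower for 5 of 12 and higher for 0, in a comparison where lower calls outnumbered higher ones over all genes. Of the 7 targets above the filter 2 were lower, against 18.6% of all genes there, and of the 5 below it 3 were, against 7.27% of genes tested without a filter. Those 3 were Ccl20, Sele and Ptgs2, each at 0 in every chow sample. Their means went from 0.393, 0.222 and 0.1 FPKM in CDAHFD sham to 0.0176, 0.113 and 0.0288 FPKM in CDAHFD RIC. The 7.27% covers all genes above 0 in at least 1 sample and is not matched to them in level. The 7 targets above the filter had a median difference of -0.12 on the log2(FPKM + 1) scale, against -0.08 over all genes tested. Without a call, mean FPKM was higher in CDAHFD RIC for Vcam1, Tnfaip2, Cxcl2 and Cd40 and lower for Cxcl1, Sod2 and Bcl2a1b. Icam1 fell from 7.14 ± 1.01 to 4.96 ± 0.636 FPKM (-0.45 ± 0.10 SE, limma adjusted p = 0.00414) in CDAHFD RIC, and Ccl2 from 12.0 ± 1.83 to 7.16 ± 1.75 FPKM (-0.69 ± 0.13, adjusted p = 0.00142). Ccl2 was not called with a pseudocount of 0.1 (-0.76, adjusted p = 0.119). Among 18 adaptors and kinases 2 were higher and 2 lower, all above the filter, where 8.72% of all genes were higher and 18.6% lower. Traf6, the ubiquitin ligase of the IL-1 branch, rose from 2.2 ± 0.403 to 3.49 ± 0.31 FPKM (0.50 ± 0.09, adjusted p = 0.000953), and Traf2, an adaptor of the TNF receptors, fell from 3.16 ± 0.325 to 1.65 ± 0.288 FPKM (-0.65 ± 0.09, adjusted p = 8.12e-05).

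Of 11 inflammasome partners 2 were higher and none lower with conditioning on CDAHFD, both of them above the filter. For this list and those below, the shares of all genes above the filter were 8.72% higher and 18.6% lower. Without the filter 10.7% were called in either direction. Txnip, a redox protein that can bind NLRP3 and responds to glucose, rose from 30.3 ± 6.69 to 88.7 ± 16.2 FPKM (1.53 ± 0.28 SE, limma adjusted p = 0.00113). On chow it was the 1 called gene of these lists and fell from 59.3 ± 18 to 27.6 ± 13.4 FPKM (-1.16 ± 0.27, adjusted p = 0.0445), a call that held in 6 of 19 settings. It was lost without NC sham sample 1, 2, 3 or 5 and without NC RIC sample 1, 2, 3 or 5, at -1.29 to -0.93 with adjusted p of 0.0537 to 0.108. The NF-kB subunits gave 1 call on CDAHFD, Nfkb2, lower by -0.46 ± 0.13 (adjusted p = 0.0166, called in 15 of 19 settings and lost without CDAHFD RIC sample 3, -0.33, adjusted p = 0.0707), and the ligands, receptors and decoys gave 1 higher (Il18rap) and 3 lower (Rhbdf2, Ltb and Tnfrsf1a). Il18rap was called in 7 of 18 settings, Rhbdf2 in 7, Ltb in 6 and Tnfrsf1a in 3 of 19. None of the 4 was called without CDAHFD sham sample 3 or 5 or without CDAHFD RIC sample 3 (adjusted p of 0.0529 to 0.159).

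The genes most like 4 of the members over the 19 samples were found by the root mean square difference of their patterns, after each gene was centred and divided by its SD. For Tnfaip3 they were Slc15a3 (0.148), Arhgdib (0.165) and Rassf4 (0.166), and Slc15a3 went from 0.207 FPKM in NC sham to 4.32 in CDAHFD sham and 6.09 in CDAHFD RIC. For Il1rn they were Themis (0.262), Mmp13 (0.283) and Acad9 (0.293), with Tnfaip3 the nearest of the 10 genes (0.317). For Nfkbia they were Mrpl23 (0.208), Taldo1 (0.222) and Clcn7 (0.227), and for Il1b they were Tnfrsf11b (0.367), Pilra (0.374) and Ms4a6c (0.38). The samples share diet and library, so the likeness is a description.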

How the data were processed

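The authors deposited FPKM for 55335 entries in 19 samples. FastQC 0.11.9, Trimmomatic 0.38, HISAT2 2.2.1, HTSeq 0.13.5, R 3.4.1, DESeq2 1.18.1 and mm10 are named per the submitters' processing notes. The sources used here do not name the program that made the FPKM, its annotation, strand or batches. Entries without a name (3225, 0.1232% to 0.2042% of FPKM) were left out, and 160 named entries share a symbol. FPKM keep no counts, so no count model was run and the depths are estimates from single-exon genes.

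Tests used limma 3.58.1 in R 4.3.3 (eBayes with a trend, 15 residual degrees of freedom, two-sided, Benjamini-Hochberg over all genes tested) on log2(FPKM + 1). The code was tested on simulated data. Members and lists were chosen with earlier results of these data known. Besides the 10 genes, up to 4 genes per list with the smallest p, 6 fixed pathway genes (Nfkb1, Rela, Relb, Tnfrsf1a, Il1r1 and Il18bp) and 3 genes most like each of 4 members could be named, and a subset is. Alternatives were a pseudocount of 0.1, no filter, a filter of 0.1, equal FPKM sums, median-ratio scaling, quantile normalization, a replicate block, array weights, only the groups compared, and leaving out samples. Positions came from GENCODE (mm10) and promoters from RefSeq (GRCm38.p6). Python 3.11.15, numpy 2.4.6, pandas 2.3.3 and matplotlib 3.10.9 were used.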

Additional observations from a re-analysis of the deposited data

Results flagged for a closer look

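In NC RIC, Il1a of sample 4 (1.41 FPKM) lay far above the other 4 samples, with a gap of 0.928 of the group's range. In CDAHFD RIC, Tnfrsf1b of sample 3 (5.79 FPKM) lay far below the other 3, with a gap of 0.84 of the range. These are 2 of 40 groups of a member examined, and chance gives about 1 in 20.

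The limma interaction of conditioning and diet, on the log2(FPKM + 1) scale, passed the threshold for 9 genes of the pathway outside the 10, of which 3 were at or near 0 on chow. The 9 were, by list, 4 of 12 NF-kB target genes, 2 of 11 inflammasome partners and 2 of 18 adaptors and kinases. Other NF-kB feedback genes gave 1 of 10, and the 5 NF-kB subunits and 14 ligands, receptors and decoys gave 0. Over all genes 6.72% passed above the filter and 1.7% without it. Txnip had the largest difference (2.69, adjusted p = 0.000892), followed in size by Bcl3 (-1.33, adjusted p = 0.00225) and Nlrp12 (0.96, adjusted p = 0.0106). Icam1 (-0.71, adjusted p = 0.00632) and Traf6 (0.5, adjusted p = 0.0215) held in all 28 settings, as did the 3 before them. Traf2 (-0.45, adjusted p = 0.0316) was called in 17 of 28 settings. The other 3 could show no fall on chow, so their interaction repeats the difference on CDAHFD and no difference between diets can be read from it. Ccl2 (-0.72, adjusted p = 0.0238, 24 of 28 settings) had chow means of 0.048 and 0.0749 FPKM and a difference of -0.69 on CDAHFD. Ccl20 (-0.44, adjusted p = 0.0343) and Ptgs2 (-0.1, adjusted p = 0.0491) were listed at 0 in all 10 chow samples, differed by the same -0.44 and -0.1 on CDAHFD and were called in 12 and 6 of 27 settings.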

How the results depend on the processing

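The diet calls of Tnf, Il1a, Il1rn, Nlrp3, Casp1, Tnfaip3 and Nfkbia held in every setting run, in sham and in RIC mice. Median-ratio scaling and quantile normalization bring the median difference of all genes, 0.45 for the diet in sham mice, to about 0, and the share of called genes that were higher went from 86.1% to 50% and 47.6% (in RIC mice from 90.5% to 50.7% and 47.2%). Equal sums, median-ratio scaling and quantile normalization moved that share from 31.9% to 55.5%, 55.8% and 50.5% for RIC on CDAHFD and from 27.2% to 14.8%, 62.2% and 64.4% on chow, and equal sums from 53.4% to 81.1% for the interaction. Il18 turned to -0.12 and -0.15 in sham and to -0.28 under both in RIC mice. The Tnf interaction (-0.04) turned to 0.03 with a pseudocount of 0.1 and to 0.02 under the 3 scalings, and ran from -0.12 to 0.10 without 1 sample. Other directions turned only when 1 sample was left out: on chow Il1a ran from -0.25 to 0.02 and Tnf from -0.05 to 0.01, and on CDAHFD Tnf ran from -0.15 to 0.07, Nfkbia from -0.23 to 0.01 and Il18bp from -0.01 to 0.39. The cause was not tested.

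For RIC on CDAHFD the 2 members called became 0 with a pseudocount of 0.1, 1 without a filter and 0 with only the groups compared, and 0 to 3 when 1 sample was left out, with Nlrp3 passing under the 3 scalings (all genes 2886, 1868 with only the groups compared, 2073 to 3271 without 1 sample). For RIC on chow the 0 members became 1 with array weights and stayed 0 without 1 sample, while all genes called went from 125 to 48 without a filter, 68 with a filter of 0.1, 59 after quantile normalization, 401 with array weights, 46 with only the groups compared and 13 (NC sham 2) to 184 (NC sham 4) without 1 sample. For the interaction the 0 members became 1 under median-ratio scaling, quantile normalization, array weights and without CDAHFD sham 2 and 5, and 0 to 1 without 1 sample (all genes 711, 1266 without CDAHFD sham 2 and 5, 438 to 1042 without 1 sample). Without 1 sample the diet in sham mice gave 10 members (7587 to 7795 genes, 7852 with all samples and 12361 without a filter), and in RIC mice 9 (6877 to 7317 genes).

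Replicate numbers are shared between groups, and the labels do not say what they stand for. Deviations of same-numbered samples were weakly correlated (-0.174 to 0.176 over 18 pairs, 11 of 38 checks best with the own number). The main fit used no pairing, and these checks cannot show that none exists. A fit with the replicate block gave 79 genes for RIC on chow and changed no call of the 10 genes. Depth limits Tnf and Nlrp3 on chow.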
